A study of Saccharomyces cerevisiae with 24 samples.

Results

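Most genes of budding yeast have no intron, and the genes described here are those that do, with the genes named RPL, RPS, RPP and MRP left out. They were taken from the deposited table of 7126 genes as rows whose genomic span exceeded the exonic length by at least 40 bases, which held for 290 rows. Mitochondrial rows, tRNA and snR rows, the RPL, RPS, RPP and MRP names and 11 genes listed by name (EFB1, NOG2, PRE3, ATG38, TFC3, EPT1, COX5B, QCR9, QCR10, HAC1 and HMRA1) were dropped, leaving 174. The sum of counts over 24 libraries then had to reach 240, which left 161 genes. Of these, 158 were abundant enough to be tested among 6503 genes, and the other 3 were members of the Y' element family at chromosome ends. The members just inside the count limit were REC114 with 253 counts, YRF1-3 with 282 and YPR202W with 285, and the rows just outside it were YOR318C with 174, YLL066C with 147 and YBL111C with 116. ASC1, whose protein binds the small ribosomal subunit, and YML6, a mitochondrial ribosomal protein, remained because their names do not carry those prefixes.

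RNA sequencing measured these genes in 24 libraries of the laboratory strain CEN.PK, 2 libraries for each of 12 groups. The genotypes were WT, rph1Δ (no Rph1, a histone demethylase acting on H3K36), set2Δ (no Set2, the enzyme that methylates H3K36 during transcription) and H3K36A, whose labels name the K36A change in HHT1 and in HHT2, the genes of histone H3. Cells in log phase in YPL, a rich medium, made the 0 h groups, and cells washed and moved to SL, a minimal medium, made the 1 h and 3 h groups. The labels do not say whether the 2 libraries of a group came from separate cultures, and the p-values below rest on the spread between these libraries, which may be technical. In such bulk samples, a change in the share of cells that hold a transcript and a change in its amount per cell cannot be told apart.

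An intron is removed from the precursor RNA by the spliceosome, which recognises the 5′ splice site, the branch point and the 3′ splice site. Yeast introns are few, mostly single and close to the start of the gene, and their splice signals vary little between genes. Ribosomal protein genes make up the most highly expressed share of them, and the others code for proteins of many kinds, among them actin, ubiquitin-conjugating enzymes, vesicle traffic proteins and meiotic proteins. H3K36 methylation is laid down over transcribed genes by Set2, which travels with RNA polymerase II, and it recruits a histone deacetylase complex to the transcribed region. The values below come from counts per gene over exons, so spliced and unspliced transcripts of a gene cannot be told apart in them.

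The introns of the genes on which the results turn are printed from the S288C reference of RefSeq (build sacCer3), 5′ to 3′ on the strand of the gene, with capitals for the first 6 bases, for an exact TACTAAC (the copy nearest the 3′ end) and for the last 3 bases. CEN.PK may differ from this reference. The first set shows genes with 2 introns, a kind of which 7 members are known in the annotation and which were mostly lower in set2Δ after 3 h. The positions are chrII:462210-462289 and chrII:462430-462499 for SUS1 (plus strand), chrIV:1319721-1319816 and chrIV:1319618-1319697 for DYN2 (minus strand), chrVII:435680-435749 and chrVII:436313-436374 for HOP2 (plus strand), and chrXII:766182-766249 and chrXII:766074-766129 for TAD3 (minus strand).
SUS1 intron 1: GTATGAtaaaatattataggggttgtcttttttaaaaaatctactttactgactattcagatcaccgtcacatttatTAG
SUS1 intron 2: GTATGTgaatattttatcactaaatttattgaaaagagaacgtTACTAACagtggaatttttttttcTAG
DYN2 intron 1: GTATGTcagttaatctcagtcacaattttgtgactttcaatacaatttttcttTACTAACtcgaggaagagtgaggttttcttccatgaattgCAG
DYN2 intron 2: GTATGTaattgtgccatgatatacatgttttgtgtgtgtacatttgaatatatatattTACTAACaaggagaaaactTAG
HOP2 intron 1: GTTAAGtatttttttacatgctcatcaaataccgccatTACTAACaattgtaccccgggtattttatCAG
HOP2 intron 2: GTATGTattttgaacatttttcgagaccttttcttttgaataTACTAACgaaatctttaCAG
TAD3 intron 1: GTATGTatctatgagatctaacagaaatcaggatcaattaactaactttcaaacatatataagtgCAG
TAD3 intron 2: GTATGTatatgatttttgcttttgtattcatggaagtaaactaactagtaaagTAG
The first intron of SUS1 begins with GTATGA and holds no exact TACTAAC, whereas its second has both usual signals. Neither intron of TAD3 holds the exact branch point letters. HOP2 is the member whose coordinates in the table differ from those of the annotation, which gives its first intron the start GTTAAG.

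The second set shows single short introns of genes that rose in WT after the move to SL or were lower in the H3K36 mutants. The positions are chrVIII:298361-298484 for PAL2, chrII:407028-407122 for UBC4, chrIV:569634-569723 for UBC5 and chrXIII:652776-652847 for CMC4 (all minus strand), and chrV:548553-548644 for DMC1 and chrXIV:609791-609874 for SPO1 (plus strand).
PAL2: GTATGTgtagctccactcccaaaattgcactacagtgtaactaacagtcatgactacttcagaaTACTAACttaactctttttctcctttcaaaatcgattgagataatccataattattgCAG
UBC4: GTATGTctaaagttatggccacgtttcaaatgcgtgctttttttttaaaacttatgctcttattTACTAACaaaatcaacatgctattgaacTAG
UBC5: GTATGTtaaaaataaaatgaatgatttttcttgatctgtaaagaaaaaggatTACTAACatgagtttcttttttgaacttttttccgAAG
DMC1: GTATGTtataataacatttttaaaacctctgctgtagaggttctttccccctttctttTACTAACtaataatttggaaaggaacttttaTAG
CMC4: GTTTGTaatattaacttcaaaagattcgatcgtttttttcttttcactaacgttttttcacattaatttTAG
SPO1: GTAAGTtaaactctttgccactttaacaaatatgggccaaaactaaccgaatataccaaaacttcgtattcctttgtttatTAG
CMC4 and SPO1 had a 5′ splice site other than GTATGT and no exact TACTAAC, and the other 4 carried both.

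The third set shows the ends of the long introns of the genes that fell furthest in WT, with ACT1 beside them. The whole introns lie at chrXIV:414912-415913 for DBP2 (plus strand, 1002 bases, the longest among the members), chrXIII:163309-163716 for IMD4 (minus strand, 408 bases), chrXIII:499879-500151 for ASC1 (minus strand, 273 bases), chrXI:283096-283421 for TEF4 (plus strand, 326 bases) and chrVI:54378-54686 for ACT1 (minus strand, 309 bases). For each, the first 30 bases and the bases from 20 before the branch point to the 3′ end are given.
DBP2 first bases: GTATGTtaaaattttctccatttttttatt
DBP2 last bases: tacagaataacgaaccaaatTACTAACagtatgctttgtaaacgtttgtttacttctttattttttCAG
IMD4 first bases: GTATGTtataatagacaaaatttttggtat
IMD4 last bases: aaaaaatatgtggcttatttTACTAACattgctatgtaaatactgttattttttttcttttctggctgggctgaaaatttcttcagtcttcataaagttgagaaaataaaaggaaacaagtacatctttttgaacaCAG
ASC1 first bases: GTATGTgatatattttctttccatgataga
ASC1 last bases: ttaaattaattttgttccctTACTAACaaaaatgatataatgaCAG
TEF4 first bases: GTATGTtccatattttattttaacacttcc
TEF4 last bases: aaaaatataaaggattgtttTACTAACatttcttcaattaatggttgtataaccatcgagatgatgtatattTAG
ACT1 first bases: GTATGTtctagcgcttgcaccatcccattt
ACT1 last bases: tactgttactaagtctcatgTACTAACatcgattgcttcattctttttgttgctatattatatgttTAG
All 5 began with GTATGT and held TACTAAC, and the branch point A lay 20 bases from the 3′ end in ASC1 and 113 bases from it in IMD4. The annotation also places a small nucleolar RNA inside the introns of TEF4 (snR38), IMD4 (snR54) and ASC1 (snR24).

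The annotation gave 167 introns for 160 of the 161 genes. GTATGT opened 124 of them (74.3%), followed by GTACGT in 11, GTAAGT in 10, GTATGC in 6 and GCATGT in 5. The exact letters TACTAAC stood in 129 introns (77.2%) on the strand of the gene, against 1 on the opposite strand (0.599%). Windows of equal length just downstream held it in 1 of 167 on either strand. A match is a description of the letters, not of a site in use. The branch point A of the copy nearest the 3′ end lay 11 to 155 bases from it, with a median of 30. The last bases were TAG in 84 introns, CAG in 72 and AAG in 10. The introns had a median length of 96 bases, 23 were over 200 bases, and the median GC content was 33.0%. The 92 introns of the 90 genes with RPL, RPS, RPP or MRP names were longer, with a median of 407.5 bases, and TACTAAC stood in 93.5% of them. The first intron began a median of 34 coding bases into the gene and within the first 100 coding bases in 121 of 160 genes, and 13 genes had it after more than 500.

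The 24 libraries held 6623458 to 7677684 counts, with a median of 7055346.5, and the intron-containing genes took 2.21% to 2.28% of the counts at 0 h in WT and the mutants and 1.88% to 2.07% later. Levels are given below as FPKM (fragments per kilobase of exon and library size) rescaled by the TMM factors of edgeR, so that libraries of different composition can be set side by side. On this scale the median intron-containing gene stood at 99.4, 107 and 120 in WT at 0 h, 1 h and 3 h, against 49.3, 48.4 and 50.5 for 5400 protein-coding genes without an intron. The genes were also shorter, with a median exonic length of 793.5 bases against 1267.5. The deleted genes were nearly or wholly without counts in their strains: RPH1 had 8 over the 6 rph1Δ libraries against 3336 over the 6 WT libraries, and SET2 had 0 in set2Δ against 1641. In the libraries labelled H3K36A, HHT1 and HHT2 had 5 and 2 counts against 16771 and 23721 in WT. A substitution alone would leave reads of these genes in place, so these counts do not check the K36A label, and the labels do not say what expresses histone H3 there. The name H3K36A is used below as the label gives it. HMRA1, the gene for a1, had 0 counts in rph1Δ and 442 in WT, and all 7 a-specific genes were lower and all 4 alpha-specific genes higher in rph1Δ at 0 h, so mating type and the loss of Rph1 cannot be told apart in any comparison with that strain. WT library 2 at 3 h differed from library 1 by gene length: intron-containing genes of up to 500 bases had a median log2 ratio of 0.27 to library 1, and the corresponding intronless genes 0.27 as well. The same ratio was 0.25 for the intron-containing and 0.19 for the intronless genes in H3K36A at 0 h and -0.20 and -0.18 in set2Δ at 0 h, groups that enter the 0 h and first-hour tests. Chi-square per degree of freedom between libraries was 12.8 for WT at 3 h, 9.77 for H3K36A at 0 h and 14.9 for set2Δ at 0 h, against 2.72 to 6.78 elsewhere. Calls that were lost without 1 of these libraries are given beside the genes, and the main counts at 3 h are also given without WT library 2.

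**Figure D1:**
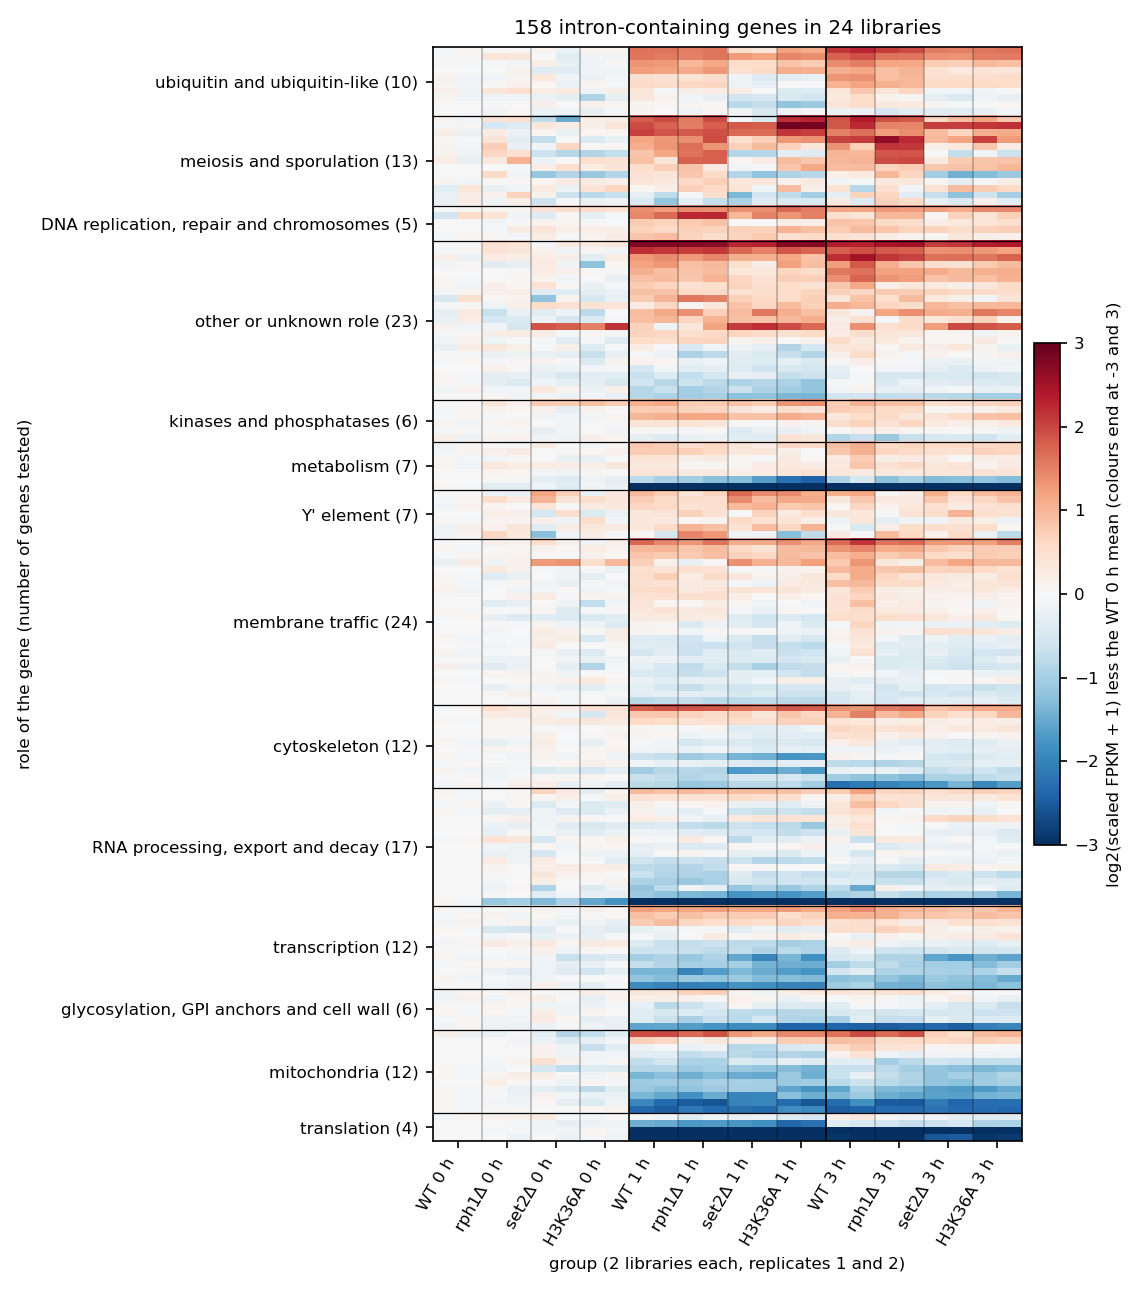
Each row is 1 of the 158 tested genes, grouped by role with the number of genes in brackets, and each column is 1 of the 24 libraries, with time from left to right. Colour gives log2(TMM-scaled FPKM + 1) less the WT mean at 0 h, and the colours end at -3 and 3. The ubiquitin and meiosis groups were redder and the translation group bluer in SL than in YPL.

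The first question was how WT cells changed these transcripts on leaving the rich medium. After 1 h in SL, 66 of the 158 genes had risen and 55 had fallen, beside 37.3% and 34.8% of all 6503 genes tested. The genes that fell furthest code for an RNA helicase, an enzyme of GMP synthesis and translation proteins, and those that rose furthest code for meiotic proteins, ubiquitin-conjugating enzymes and proteins of the cell cortex and vesicles. After 3 h the numbers were 80 higher and 37 lower, beside 35.6% and 34% of all genes, and the median change of the intron-containing genes was 0.33 on the log2 scale against 0.02 for all genes. With WT library 2 of 3 h left out, 64 were higher and 38 lower, beside 32.5% and 32.4% of all genes. Scaled by library totals alone, all genes had a median of -0.11 at 3 h against 0 h and the intron-containing genes 0.14. Of the latter 64 were called higher and 46 lower, beside 29.4% and 39.6% of all genes. The same scaling gave 75 higher and 46 lower at 1 h, beside 40.2% and 31.6% of all genes. The medians were then 0.21 for the intron-containing genes and 0.16 for all genes. The intron-containing genes with RPL, RPS, RPP or MRP names behaved otherwise, since 90 of 90 were lower at 1 h and at 3 h, with medians of -3.78 and -1.85.

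DBP2, a DEAD-box RNA helicase, stood at 223 and 209 in the WT libraries at 0 h, 1.18 and 0.535 at 1 h and 19.5 and 14.8 at 3 h. The 1 h libraries held 15 and 6 counts of it, and no time overlapped another. Its log2 change was -7.92 ± 0.23 (SE) at 1 h (edgeR, adjusted p = 4.51e-21) and -3.65 ± 0.15 at 3 h (edgeR, adjusted p = 1.85e-17), and it rose by 4.27 ± 0.30 between 1 h and 3 h (edgeR, adjusted p = 3.34e-12). IMD4, an IMP dehydrogenase of GMP synthesis with the near-identical copy IMD3, stood at 179 and 172, then 4.03 and 3.44, then 9.57 and 6.76. The changes from 0 h were -5.54 ± 0.15 at 1 h and -4.42 ± 0.14 at 3 h (edgeR, adjusted p = 2.58e-21 and adjusted p = 8.83e-20), and it rose by 1.12 ± 0.22 between 1 h and 3 h (edgeR, adjusted p = 1.25e-04). Reads of IMD3 and of the small nucleolar RNA in its intron make the separate level of IMD4 uncertain.

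Of the 4 translation genes, 3 fell at 1 h and none passed the test in the other direction. ASC1, the yeast RACK1 homologue on the small ribosomal subunit, went from 2360.3 and 2329.9 to 84.0 and 74.1 and back to 307 and 287, a change of -4.89 ± 0.10 at 1 h (edgeR, adjusted p = 6.82e-24). TEF4, the gamma subunit of elongation factor eEF1B, went from 925 and 937 to 60.2 and 53.1 and 104 and 97.5, with -4.04 ± 0.09 at 1 h (edgeR, adjusted p = 4.28e-23). In both genes the 3 times were apart in all libraries, and both overlap a small nucleolar RNA gene. TMA20, a ribosome-associated protein, changed by -1.49 ± 0.09 at 1 h (edgeR, adjusted p = 1.30e-14), and between 1 h and 3 h all 4 genes of this role rose, ASC1 by 1.91 and TMA20 by 1.09.

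**Figure D2:**
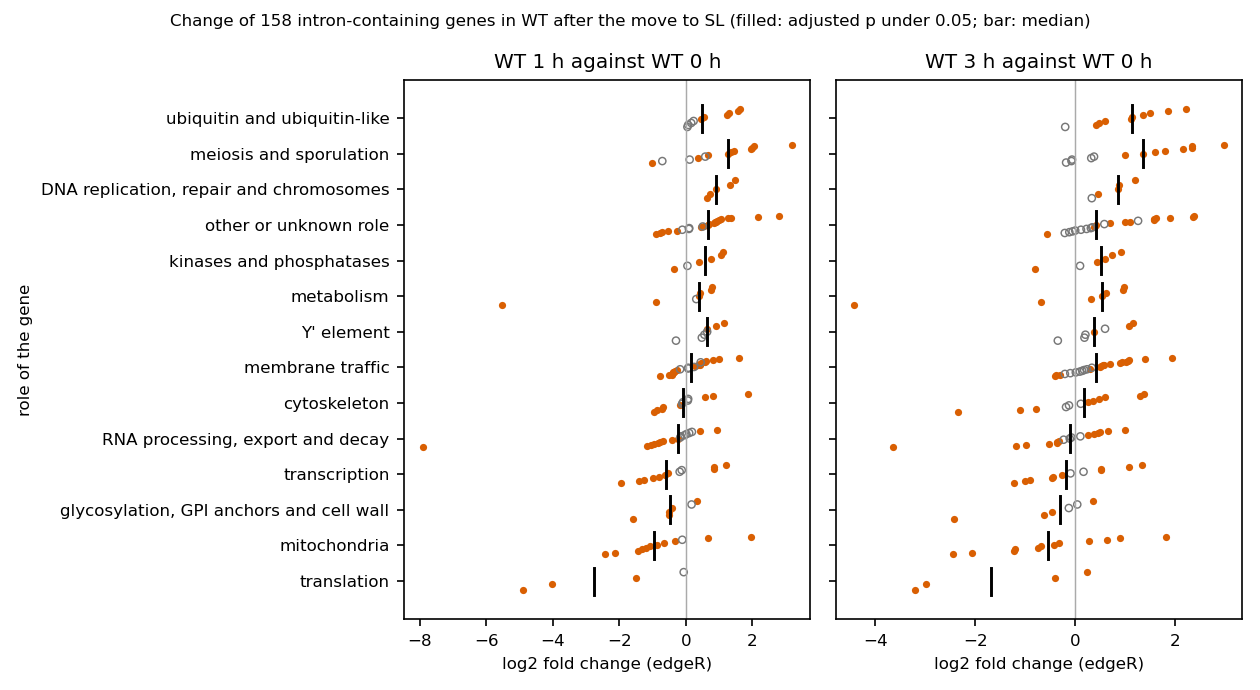
Log2 fold changes (edgeR) of the 158 genes in WT at 1 h and at 3 h against 0 h, in rows by role. Filled points had an adjusted p under 0.05, open points did not, and the bar is the median of the role. At 3 h the ubiquitin genes had a median of 1.13 with 9 of 10 called higher, and the translation genes a median of -1.69.

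Genes of mitochondrial proteins mostly fell: 9 of 12 were lower at 1 h and 8 at 3 h. YML6, a mitochondrial ribosomal protein, stood at 323 and 306 at 0 h, 60.3 and 55.6 at 1 h and 56.1 and 58.9 at 3 h, a change of -2.44 ± 0.08 at 1 h (edgeR, adjusted p = 8.11e-20). CMC2, a cytochrome c oxidase assembly factor, changed by -2.12 ± 0.14 and AIM11 by -1.45 ± 0.11 at 1 h (edgeR, adjusted p = 2.41e-13 and adjusted p = 9.28e-12), and at 3 h IAI11 changed by -1.23. The gene CMC4, a small protein of the intermembrane space, went the other way and stood at 103 and 80.2, 354 and 363 and 282 and 358, higher in every later library, with 1.97 ± 0.16 at 1 h (edgeR, adjusted p = 1.92e-11). PTC7, a mitochondrial phosphatase known for a transcript that is translated with or without its intron, changed by -0.86 ± 0.09 at 1 h (edgeR, adjusted p = 2.80e-09) and -0.68 ± 0.09 at 3 h (edgeR, adjusted p = 1.98e-07). OM14, an outer membrane protein, rose by 0.67 at 1 h and 0.89 at 3 h.

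The ubiquitin group rose and had no member called lower in either comparison with 0 h: 6 of 10 genes were higher at 1 h and 9 of 10 at 3 h. UBC5, an E2 ubiquitin-conjugating enzyme of protein turnover under stress, stood at 298 and 321 at 0 h, 959 and 952 at 1 h and 1372 and 1501 at 3 h. Its changes were 1.63 ± 0.08 (edgeR, adjusted p = 8.94e-16) and 2.21 ± 0.08 (edgeR, adjusted p = 2.38e-18), and no library of one time reached another. UBC4, its close relative with which it can share reads, stood at 904 and 928, 972 and 955 and 1179 and 1352. UBC8, an E2 enzyme that acts in the turnover of a gluconeogenic enzyme, changed by 1.59 ± 0.09 at 1 h and 1.86 ± 0.09 at 3 h (edgeR, adjusted p = 5.29e-15 and adjusted p = 2.81e-16). Scaled by library totals, 8 of the 10 rose and 1 fell at 3 h, and without WT library 2 of 3 h, 7 rose and none fell.

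Of 13 meiosis and sporulation genes, 9 rose and 1 fell at 1 h, with a median of 1.28, and 8 rose and none fell at 3 h, with a median of 1.35. DMC1, the meiotic DNA strand exchange protein, stood at 5.51 and 4.62, 20.1 and 22.6 and 21.5 and 29.8, with 2.07 ± 0.25 at 1 h (edgeR, adjusted p = 4.28e-08). REC107, needed for meiotic double-strand breaks, stood at 31.2 and 23.9, 116 and 104 and 79.6 and 88.0, with 1.99 ± 0.13 at 1 h (edgeR, adjusted p = 3.30e-13). In both genes all later libraries exceeded all 0 h libraries, at levels well under the median intron-containing gene. SPO1, a phospholipase-like protein of spore formation, changed by 1.96 ± 0.13 and AMA1, which activates the anaphase-promoting complex in meiosis, by 1.28 ± 0.48 at 1 h (edgeR, adjusted p = 3.09e-13 and adjusted p = 0.0205). MND1, the partner of HOP2 in meiotic recombination, changed by 2.33 ± 0.35 at 3 h (edgeR, adjusted p = 1.71e-06), and HFM1, a meiotic helicase, changed by -0.45 between 1 h and 3 h. PCH2, a meiotic checkpoint ATPase, was the member that fell at 1 h, by -1.02. AMA1 and MND1 overlap another gene. Leaving out a single library removed the call for AMA1 (0.83 without WT library 2 of 0 h and 0.77 without library 1 of 1 h), for PCH2 (-0.72 without library 2 of 0 h and -0.61 without library 2 of 1 h) and for HFM1 (-0.39 without library 1 of 1 h).

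Membrane traffic was split at 1 h, with 10 of 24 genes higher and 9 lower, and mostly higher at 3 h, with 13 higher and 3 lower. SNC1, a v-SNARE of secretory vesicles, stood at 149 and 151, 496 and 409 and 490.1 and 663, with 1.59 ± 0.14 at 1 h and 1.94 ± 0.14 at 3 h (edgeR, adjusted p = 1.62e-10 and adjusted p = 3.72e-12). NYV1, the v-SNARE of the vacuole, rose by 0.99 at 1 h, while SEC14, the phosphatidylinositol and phosphatidylcholine transfer protein, changed by -0.78. Between 1 h and 3 h, 14 traffic genes rose and none fell, or 7 and none without WT library 2 of 3 h, the largest changes being SFT1 (0.63) and NCE101 (0.63), neither of which passed with library totals (0.34 and 0.34). NCE101 also lost its call without library 2 of 1 h (0.38) or of 3 h (0.37). With library totals 3 of the 24 traffic genes rose between 1 h and 3 h and 4 fell, with a median of 0.01, so their rise depended on the scaling. This WT interval, with 62 intron-containing genes higher and 19 lower against 27.4% and 18.7% of all genes, depended on the scaling. Their median was 0.21 with TMM factors and -0.08 with library totals, where 28 were higher and 43 lower. Under library totals 15.5% of all genes were higher and 40.3% lower, with a median of -0.24. Leaving out WT library 2 of 3 h gave 44 higher and 19 lower, beside 24.7% and 13.3% of all genes. Relative to all genes, the intron-containing genes lay 0.19 higher with TMM and 0.17 with totals.

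Among 12 cytoskeleton genes, ACT1, the actin gene, stood at 1797 and 1737 at 0 h, 1124 and 1081 at 1 h and 1946 and 1866 at 3 h. It was lowest at 1 h in both libraries, with -0.68 ± 0.08 (edgeR, adjusted p = 1.10e-08), and at 3 h its change from 0 h was 0.11 ± 0.08 (edgeR, adjusted p = 0.208). YSC84, an actin-binding protein of endocytosis, rose by 1.88 ± 0.08 at 1 h, and CIN2, which helps fold tubulin, changed by -2.34 ± 0.21 at 3 h (edgeR, adjusted p = 2.26e-17 and adjusted p = 2.03e-10). TUB1 and TUB3 code for near-identical alpha-tubulins, and TUB1 changed by -0.62 between 1 h and 3 h. DYN2, the dynein light chain with 2 introns, rose by 0.82 at 1 h and 1.30 at 3 h.

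Of 17 genes for RNA processing, export and decay, 2 rose and 9 fell at 1 h, and 6 rose and 7 fell at 3 h, or 3 and 6 without WT library 2 of 3 h. YRA1, an mRNA export factor that controls its own intron's removal, stood at 483 and 477, 403 and 416 and 433 and 476, with -0.23 ± 0.07 at 1 h (edgeR, adjusted p = 0.0069), a call that was lost with library totals (-0.13) and without WT library 1 of 1 h (-0.21). SUS1, a subunit of the SAGA and TREX-2 complexes, stood at 161 and 167, 184 and 168 and 211 and 307, and its change at 3 h was 0.66 ± 0.14 (edgeR, adjusted p = 1.51e-04), the 2 libraries of 3 h being far apart, and 0.34 without library 2. STO1, the large cap-binding subunit, changed by -1.17 at 1 h. MPT5, an mRNA-binding repressor, changed by -1.18 at 3 h and overlaps another gene.

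Of 12 transcription genes, 7 fell at 1 h, led by RPO26, a subunit shared by the RNA polymerases, at -1.94 ± 0.09 (edgeR, adjusted p = 2.65e-16), and ARP9, a chromatin remodelling subunit, changed by -1.24 at 3 h. NCB2 rose by 0.95 between 1 h and 3 h and overlaps another gene. MAF1, the repressor of RNA polymerase III, changed by 0.84 ± 0.09 at 1 h and 1.07 ± 0.09 at 3 h (edgeR, adjusted p = 4.56e-09 and adjusted p = 5.68e-11). All 5 genes of DNA replication, repair and chromosomes rose at 1 h, with NBL1 at 1.49 and SRC1 at 1.35. Among kinases and phosphatases 4 of 6 rose at 1 h, led by MRK1 at 1.13, while GLC7, the catalytic subunit of protein phosphatase 1, changed by 0.05 ± 0.08 (edgeR, adjusted p = 0.595). Outside the named roles, PAL2, a protein of endocytic sites, stood at 41.2 and 41.1, 287 and 289 and 215 and 208 and rose most among well expressed members, by 2.81 ± 0.09 at 1 h (edgeR, adjusted p = 1.92e-20). RRT8 changed by 2.19 and YCL012C by 2.36. Among 6 genes of glycosylation and the cell wall, ECM33, a GPI-anchored wall protein, stood at 960.2 and 1066, 336 and 342 and 192 and 186, lower at each later time in both libraries, with -2.42 ± 0.08 at 3 h (edgeR, adjusted p = 6.72e-20). Of 7 metabolic genes 4 rose and 2 fell at 1 h, with HNT1, a nucleotide hydrolase, at 0.78 and CPT1, the cholinephosphotransferase of phosphatidylcholine synthesis, at 0.76. Of 7 tested Y' element genes, whose copies share sequence, 3 rose at 1 h and none fell.

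**Figure D3:**
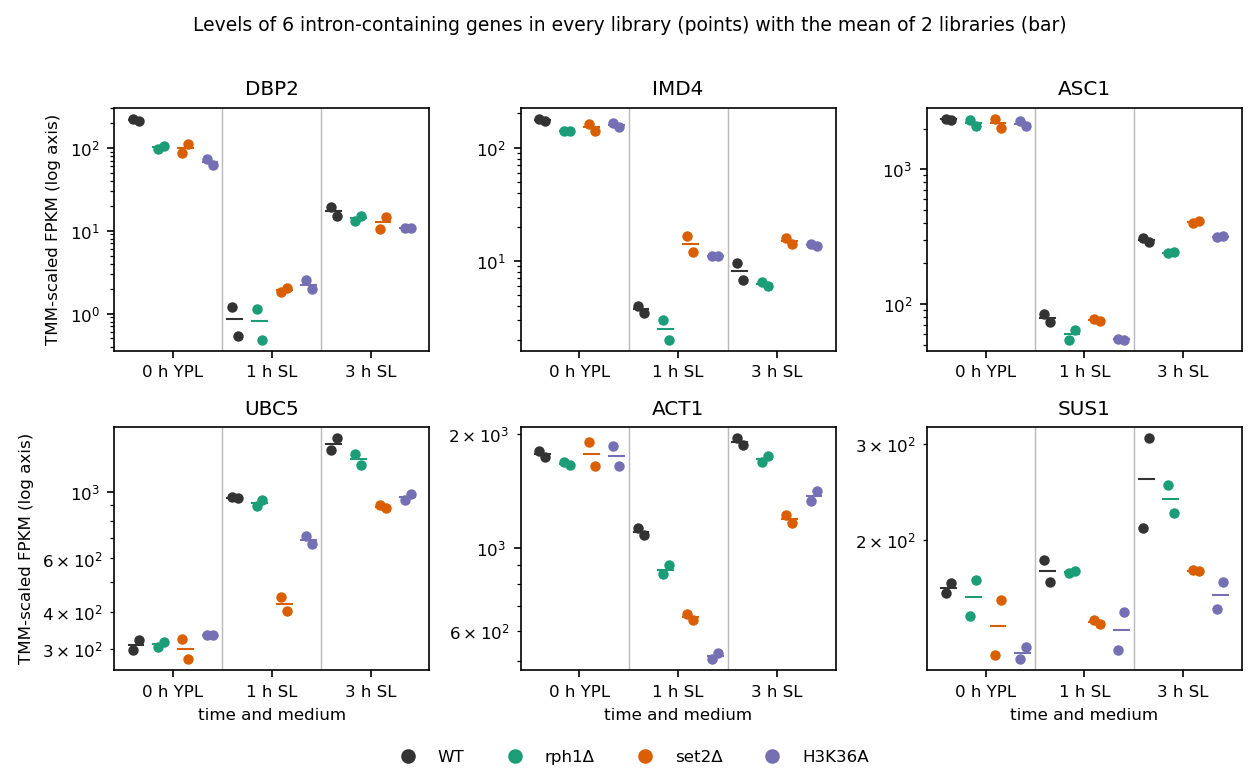
TMM-scaled FPKM on a log axis of 6 genes in every library, with time from left to right, genotype by colour and the mean of 2 libraries as a bar. DBP2 fell by a log2 change of -7.92 in WT at 1 h and was lower than WT at 0 h in each mutant, IMD4 lay above WT in set2Δ and H3K36A at 1 h and 3 h, and UBC5 and ACT1 lay below WT in those strains at both times.

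The next question was how these transcripts differed from WT in set2Δ and H3K36A. H3K36 methylation itself was not measured in these libraries. In YPL few differed from WT. In SL many were lower in both strains, among them most ubiquitin genes at both times, while DBP2, IMD4 and NMD2 went the other way at 1 h. All comparisons of mutants with WT at a time share the same WT libraries, so the values of the strains are given side by side.

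In YPL at 0 h, 11 of 158 intron-containing genes were higher and 12 lower in set2Δ, beside 13.3% and 8.73% of all genes, and 8 were higher and 18 lower in H3K36A, beside 13.4% and 11.1%. Under library totals set2Δ had 12 higher and 12 lower, beside 14.5% and 6.60% of all genes. H3K36A then had 13 higher and 12 lower, beside 16.8% and 7.40%, and the members' median there moved from -0.05 to 0.01. DBP2 stood at 223 and 209 in WT, 86.0 and 110.3 in set2Δ and 72.9 and 61.9 in H3K36A, so WT lay above every mutant library. The changes were -1.14 ± 0.13 and -1.68 ± 0.13 (edgeR, adjusted p = 1.71e-07 and adjusted p = 3.10e-10). MRK1, a glycogen synthase kinase homologue, stood at 25.1 and 25.7 in WT, 43.6 and 43.9 in set2Δ and 48.6 and 42.8 in H3K36A, above WT in all 4 mutant libraries, with 0.78 ± 0.11 and 0.85 ± 0.11 (edgeR, adjusted p = 4.76e-06 and adjusted p = 1.28e-06). NCE101, a small protein of nonclassical export, stood at 59.2 and 80.4 in WT, 169.8 and 177 in set2Δ and 100.4 and 135 in H3K36A, with 1.31 ± 0.22 and 0.75 ± 0.23 (edgeR, adjusted p = 5.78e-05 and adjusted p = 0.0155). The H3K36A call did not pass without H3K36A library 2 (0.52) or WT library 1 (0.55).

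PTC7 was lower in both strains at 0 h, with -0.63 in set2Δ and -0.40 in H3K36A, as were CMC4 (-0.57 and -0.54) and GIM5, a prefoldin subunit overlapping another gene (-0.42 and -0.40). In set2Δ YCL002C changed by -0.40, YKR005C by 0.53, YSF3, a splicing factor subunit, by 0.47 and the Y' gene YHL050C, which overlaps another gene, by 1.02. In H3K36A RUB1, a ubiquitin-like protein, changed by -0.57, IAI11 by -0.57 and RCF3, a respiratory chain factor, by -0.49. SRC1, an inner nuclear membrane protein overlapping another gene, changed by 0.50 there, YSC84 by 0.45 and SAC6, the actin bundler fimbrin, by 0.31. OSW2, a spore wall protein, changed by -1.43 in set2Δ and -1.59 in H3K36A. Several of these calls rested on 1 library. Without WT library 1, the set2Δ values no longer passed for CMC4 (-0.38), GIM5 (-0.33), YCL002C (-0.36), YKR005C (0.50), YSF3 (0.55) and OSW2 (-1.25), and neither did the H3K36A values for CMC4 (-0.35), GIM5 (-0.32), RUB1 (-0.46) and OSW2 (-1.41). Without WT library 2 the set2Δ calls for YCL002C (-0.44), YKR005C (0.56) and YSF3 (0.39) were lost. Leaving out a set2Δ library did the same for GIM5, YKR005C and YSF3 (library 1, with -0.36, 0.49 and 0.25) and for CMC4, YCL002C and OSW2 (library 2, with -0.30, -0.31 and -1.19). With library totals CMC4 in H3K36A was also lost (-0.48). Leaving out H3K36A library 1 did so for CMC4, GIM5, RUB1, IAI11, RCF3 and OSW2, with -0.35, -0.28, -0.29, -0.38, -0.31 and -1.41. YJR079W, which overlaps another gene, had 4 and 3 counts in WT, 20 and 18 in set2Δ and 15 and 24 in H3K36A. MEI4, a meiotic recombination protein, had 14 and 14 counts in WT, 2 and 4 in set2Δ and 2 and 4 in H3K36A, and at 3 h 15 and 17, 3 and 0 and 1 and 2.

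At 1 h in SL, 14 genes were higher and 71 lower in set2Δ, beside 20.4% and 27.3% of all genes, and 21 were higher and 64 lower in H3K36A, beside 20% and 26.7%. The median changes were -0.25 and -0.22, against -0.05 and -0.05 for all genes. With library totals, which moved the medians of all genes to 0.16 and 0.11, the split was 30 higher and 33 lower in set2Δ. This stood beside 33.7% and 13.9% of all genes. In H3K36A it was 31 higher and 35 lower, beside 30.7% and 16.3%. Relative to all genes, the intron-containing genes then still lay at -0.19 and -0.16, close to -0.20 and -0.17 with TMM.

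Of the ubiquitin genes 9 of 10 were lower in set2Δ at 1 h, with a median of -0.74, and 7 of 10 in H3K36A, with a median of -0.53. Under library totals 7 and 6 were lower, and none was higher. UBC5 stood at 959 and 952 in WT, 447 and 401 in set2Δ and 713 and 671 in H3K36A. Every mutant library lay below both WT libraries, with -1.17 ± 0.08 and -0.47 ± 0.08 (edgeR, adjusted p = 7.83e-12 and adjusted p = 2.24e-05). UBC4 stood at 972 and 955, 521 and 557 and 403 and 431 in the same order, again without overlap, with -0.84 ± 0.08 and -1.21 ± 0.08 (edgeR, adjusted p = 1.87e-09 and adjusted p = 2.79e-12). Reads of these 2 similar genes may be shared, and the pair was lower in both strains. RUB1 changed by -0.78 and -0.77.

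ACT1 stood at 1124 and 1081 in WT at 1 h, 667 and 644 in set2Δ and 507 and 526 in H3K36A. The 3 strains did not overlap, with -0.75 ± 0.08 and -1.09 ± 0.08 (edgeR, adjusted p = 1.23e-08 and adjusted p = 1.49e-11). With GIM5 (-0.75 and -0.68), 8 of 12 cytoskeleton genes were lower in set2Δ and 5 in H3K36A, and 3 in each under library totals. In membrane traffic 12 of 24 genes were lower in set2Δ and 10 in H3K36A, a count that depended on the scaling, since library totals left 4 and 2. APS3, an adaptor subunit of vesicle transport to the vacuole, changed by -0.75 and -0.73, DID4, of the ESCRT-III complex, by -0.54 in set2Δ, and SAR1, the GTPase of COPII vesicles, by -0.41 in H3K36A. Of 12 mitochondrial genes 6 were lower in set2Δ and 5 in H3K36A, led by CMC4 at -0.76 in set2Δ and RIM1, a DNA-binding protein, at -0.59 in H3K36A. Of the translation genes all 4 were lower in H3K36A, and 3 under library totals, and TMA20 alone in set2Δ. TMA20 changed by -0.82 in H3K36A and -0.32 in set2Δ, the latter lost with library totals (-0.10), without WT library 1 (-0.29) and without set2Δ library 2 (-0.26), and ASC1 by -0.53 ± 0.10 in H3K36A (edgeR, adjusted p = 8.10e-05) and -0.06 ± 0.10 in set2Δ (edgeR, adjusted p = 0.642).

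Genes that were higher at 1 h included DBP2 and IMD4, which fell furthest in WT. ASC1 and TEF4, which also fell far in WT, were not called higher in either strain. IMD4 stood at 4.03 and 3.44 in WT, 16.4 and 11.9 in set2Δ and 11.1 and 11.01 in H3K36A, higher in all mutant libraries, with 1.91 ± 0.19 and 1.56 ± 0.20 (edgeR, adjusted p = 5.28e-09 and adjusted p = 3.70e-07). DBP2 stood at 1.18 and 0.535, 1.81 and 2.04 and 2.51 and 1.96, all near the low end of detection, with 1.12 ± 0.44 and 1.34 ± 0.43 (edgeR, adjusted p = 0.038 and adjusted p = 0.0129). These calls were lost without WT library 2 (0.70 and 0.91), in set2Δ also without either of its libraries (1.20 and 1.03) and in H3K36A without its library 1 (1.15), and the values were 1.83 and 2.04 without WT library 1. NMD2, which acts in nonsense-mediated mRNA decay, stood at 27.3 and 26.1 in WT, 48.3 and 48.4 in set2Δ and 47.0 and 46.9 in H3K36A, apart from WT in every library, with 0.86 ± 0.07 and 0.81 ± 0.07 (edgeR, adjusted p = 4.39e-10 and adjusted p = 1.07e-09). NCE101 changed by 0.78 and 0.65, not passing without WT library 2 (0.53 and 0.39) or, in H3K36A, without its library 2 (0.51), and YHL050C by 0.72 in set2Δ. YRA1 changed by 0.28 and 0.33, while the small Lsm protein LSM7 (-0.66 and -0.69) and STO1 (-0.61 and -0.56) were lower.

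The meiosis genes divided the strains at 1 h. DMC1 stood at 20.1 and 22.6 in WT, 5.08 and 3.44 in set2Δ and 26.8 and 28.6 in H3K36A. It was lower than WT in both set2Δ libraries, with -2.32 ± 0.25 (edgeR, adjusted p = 2.24e-08), and 0.38 ± 0.20 in H3K36A did not pass the test (edgeR, adjusted p = 0.119). OSW2 had 67 and 78 counts in WT and 10 and 10 in set2Δ, a change of -3.08 ± 0.36 (edgeR, adjusted p = 8.73e-08). SPO1 was higher in H3K36A at 83.7 and 80.6 against 42.1 and 37.0 in WT, with 1.05 ± 0.11 (edgeR, adjusted p = 8.28e-09), and set2Δ had 39.2 and 38.6. Other genes that were lower included SRB2, a Mediator subunit (-0.80 in set2Δ), ATG44, a mitochondrial fission protein overlapping another gene (-0.91 in set2Δ), and ECM33 (-0.83 in H3K36A). DTD1, which hydrolyses D-amino-acyl-tRNAs, stood at 68.3 and 59.8 in WT and 24.2 and 21.3 in H3K36A, a change of -1.49 ± 0.17 without overlap (edgeR, adjusted p = 5.81e-08). MOB2, a kinase activator, changed by 0.74 in H3K36A. TEF4 changed by -0.46 and PTC7 by -0.52 in H3K36A. Smaller changes, removed by library totals and mostly by leaving out 1 library, were those of REC107 (-0.28, -0.06 with totals), GLC7 (-0.34, -0.12) and PTC7 (-0.27, -0.05) in set2Δ and of GLC7 (-0.24, -0.06) and MAF1 (-0.24, -0.07) in H3K36A.

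**Figure D4:**
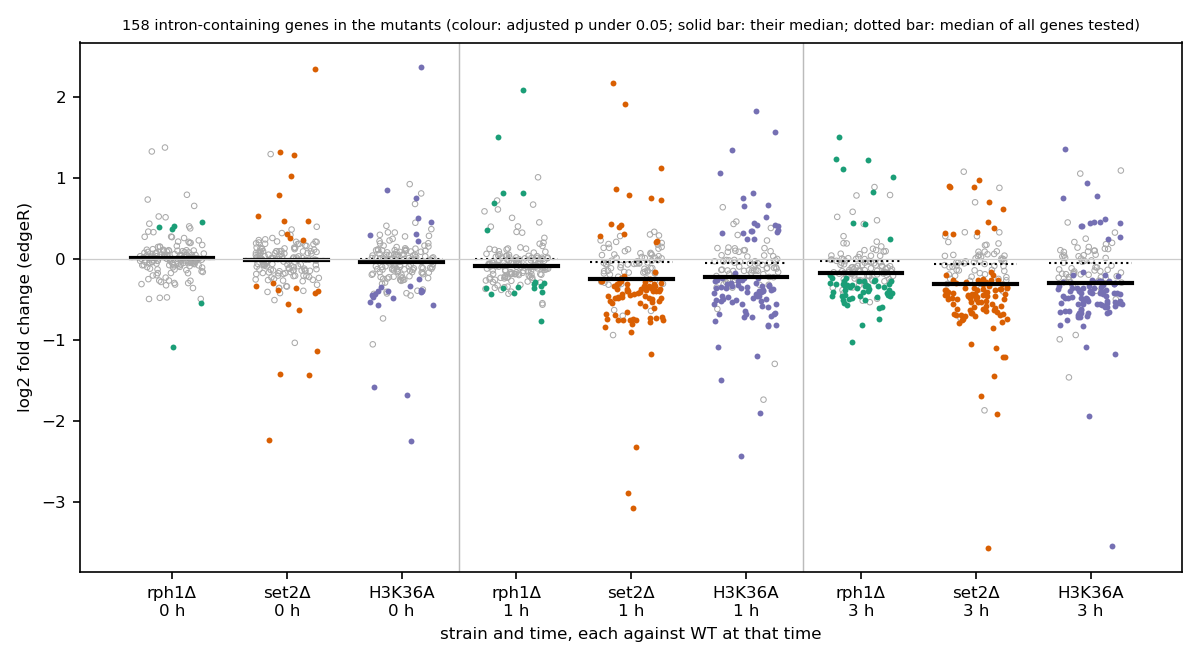
Log2 fold changes (edgeR) of the 158 genes in each mutant against WT at the same time. Coloured points had an adjusted p under 0.05, the solid bar is the median of these genes and the dotted bar that of all genes tested. The median lay near 0 at 0 h and at -0.31 for set2Δ and -0.30 for H3K36A at 3 h.

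At 3 h the number lower was largest, with 87 of 158 in set2Δ and 83 in H3K36A, beside 27.8% and 27.6% of all genes, while 11 and 13 were higher, beside 20.6% and 18.7%. This count rested in part on WT library 2 of 3 h and on the scaling. Without that library 58 and 46 were lower, beside 19.3% and 18.5% of all genes. Without WT library 1 the numbers lower were 85 and 83 (53.8% and 52.5%). This stood beside 29.5% and 28.0% of the 5400 protein-coding genes without an intron. With library totals 31 were higher and 42 lower in set2Δ, and 29 higher and 34 lower in H3K36A, with medians of -0.06 and -0.06 beside 0.17 and 0.16 for all genes. Relative to all genes, the medians were -0.25 and -0.24 with TMM and -0.23 and -0.22 with totals.

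Again the ubiquitin genes were lower in both strains, 9 of 10 in each, with medians of -0.70 and -0.57. Under library totals 9 and 7 were lower, and without WT library 2 of 3 h 8 and 7. UBC13, an E2 enzyme that builds chains for DNA repair, stood at 528 and 549 in WT, 300.1 and 295 in set2Δ and 297 and 310.2 in H3K36A. WT lay above all mutant libraries, with -0.86 ± 0.11 and -0.83 ± 0.11 (edgeR, adjusted p = 4.56e-07 and adjusted p = 9.66e-07). MMS2, its partner in chain formation, changed by -0.74 and -0.55, RUB1 by -0.79 and -0.62, DCN1, which helps attach Rub1, by -0.74 and -0.72, and PBA1, a proteasome assembly factor, by -0.54 and -0.56. UBC5 stood at 1372 and 1501 in WT, 903 and 879 in set2Δ and 937 and 979.5 in H3K36A, with -0.69 ± 0.08 and -0.58 ± 0.08 (edgeR, adjusted p = 9.98e-08 and adjusted p = 1.54e-06).

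In membrane traffic 18 of 24 genes were lower in each strain and SEC27, a COPI coat subunit, was higher in both (0.32 and 0.44). Without WT library 2 of 3 h the counts lower were 9 and 6, and with library totals 7 in each. DID4 stood at 386 and 408 in WT, 253 and 239 in set2Δ and 264 and 271 in H3K36A, below WT throughout, with -0.69 ± 0.07 and -0.57 ± 0.07 (edgeR, adjusted p = 5.38e-08 and adjusted p = 1.33e-06). VMA9, a subunit of the vacuolar proton pump with 2 introns that overlaps another gene, changed by -0.67 and -0.64, the latter lost with library totals (-0.41). GOT1, a Golgi traffic protein, changed by -0.75 in H3K36A, and KEI1, of Golgi sphingolipid synthesis, by -0.70, calls that did not hold without WT library 2 of 3 h (-0.43 and -0.30). Of 12 mitochondrial genes 10 were lower in set2Δ and 9 in H3K36A, with 6 and 5 without that WT library and 5 and 3 under library totals. CMC4 stood at 282 and 358 in WT, 149 and 128 in set2Δ and 176 and 186 in H3K36A, with -1.21 ± 0.15 and -0.82 ± 0.15 (edgeR, adjusted p = 5.63e-07 and adjusted p = 7.66e-05), and the groups did not overlap. COI1 changed by -0.68 in set2Δ (-0.43 without WT library 2) and PTC7 by -0.53 and -0.67.

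ACT1 stood at 1946 and 1866 in WT at 3 h, 1219.7 and 1162 in set2Δ and 1325 and 1410.3 in H3K36A, with -0.68 ± 0.08 and -0.48 ± 0.08 (edgeR, adjusted p = 9.99e-08 and adjusted p = 1.76e-05). Of the cytoskeleton genes 9 of 12 were lower in set2Δ and 8 in H3K36A, among them DYN2 (-0.70) in set2Δ and COF1, cofilin (-0.53), in H3K36A, whereas CIN2 (0.70) was higher in set2Δ and TUB1 (0.33 and 0.50) in both. Library totals left 3 and 2 lower, and 7 and 6 were lower without WT library 2. The DYN2 call was lost without WT library 2 (-0.42), and that of CIN2 without either WT library (0.62 and 0.79) or set2Δ library 2 (0.48). SRB2 stood at 60.9 and 65.9 in WT, 29.1 and 25.3 in set2Δ and 31.0 and 28.3 in H3K36A, separate in all libraries, with -1.22 ± 0.18 and -1.09 ± 0.18 (edgeR, adjusted p = 6.21e-06 and adjusted p = 2.82e-05). It was the largest fall among the 7 of 12 transcription genes lower in each strain, which numbered 2 in set2Δ and 1 in H3K36A under library totals and 6 and 4 without WT library 2. NCB2 changed by -0.53 in set2Δ and VPS75, a histone chaperone overlapping another gene, by -0.48 in H3K36A, a call that library totals removed (-0.25).

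DMC1 stood at 21.5 and 29.8 in WT at 3 h, 8.25 and 10.5 in set2Δ and 12.9 and 9.60 in H3K36A, and here both strains were lower, with -1.45 ± 0.23 and -1.18 ± 0.22 (edgeR, adjusted p = 9.87e-06 and adjusted p = 1.11e-04). MND1 changed by -1.06 in set2Δ, OSW2 by -1.91 and -1.94, and REC107 by -0.80 and -0.49, of which the second did not pass with library totals (-0.25). Among RNA processing genes LSM7 changed by -0.62 in set2Δ, SUS1 by -0.56 and -0.71, NMD2 by 0.61 and 0.46, and MPT5 by 0.89 and 0.93. Without WT library 2 of 3 h the SUS1 value in set2Δ was -0.25 and the MPT5 values were 0.55 and 0.59, none of which passed the test, and SUS1 in H3K36A was -0.40. IMD4 remained higher, with 0.88 ± 0.17 and 0.77 ± 0.17 (edgeR, adjusted p = 1.54e-04 and adjusted p = 8.01e-04). YDR535C, an uncharacterised gene that had no match in the reference annotation, changed by 0.90 and 1.36. Its set2Δ call was lost without WT library 2 (0.81) or set2Δ library 1 (0.87). DBP2 changed by -0.45 and -0.68, calls that were lost with library totals (-0.21 and -0.44), without WT library 1 (-0.24 and -0.47) and, in set2Δ, without its library 1 (-0.23). ATG44 changed by -1.11 in set2Δ.

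A test of the difference itself asked whether the first-hour change in each mutant differed from that in WT. In set2Δ 8 genes changed more upward and 41 more downward than in WT, beside 10.9% and 17.2% of all genes, and in H3K36A 8 and 31, beside 9.9% and 18%. Under library totals the splits were 15 and 18 in set2Δ and 12 and 18 in H3K36A, and under median-of-ratios scaling 10 and 25 and 12 and 18. DBP2 and IMD4 led the upward side: the difference was 2.26 ± 0.45 in set2Δ and 3.01 ± 0.44 in H3K36A for DBP2 (edgeR, adjusted p = 3.76e-04 and adjusted p = 8.56e-06), and 2.13 ± 0.22 and 1.71 ± 0.22 for IMD4 (edgeR, adjusted p = 2.43e-08 and adjusted p = 1.45e-06). The 6 ubiquitin genes on the downward side in set2Δ were led by UBC5 at -1.14 ± 0.12 (edgeR, adjusted p = 2.78e-08), and the 5 in H3K36A by UBC4 at -1.32 ± 0.11 (edgeR, adjusted p = 5.70e-10). ACT1 differed by -0.76 ± 0.11 and -1.08 ± 0.11 (edgeR, adjusted p = 5.62e-06 and adjusted p = 1.97e-08), together with 7 other cytoskeleton genes in set2Δ and 4 in H3K36A. MRK1, which was above WT at 0 h in both strains, differed by -1.10 and -0.60. SPO22, a meiotic protein, differed by -1.15 in set2Δ, with YCL002C at 0.70. DTD1 differed by -1.27 ± 0.22 (edgeR, adjusted p = 6.63e-05) and SPO1 by 0.76 in H3K36A, where 3 of the 4 translation genes also fell further than in WT, TMA20 by a difference of -0.69.

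By their labels, set2Δ and H3K36A both bear on H3K36 methylation, through the enzyme and through the residue. The 2 strains were compared with each other to find where they differ. At 0 h 3 genes were higher and 1 lower in set2Δ than in H3K36A, beside 1.54% and 1.18% of all genes, among them DBP2 (0.54), RCF3 (0.49) and YHL050C (0.91), each of which lost its call without 1 library of either strain. The values then ran from 0.35 to 0.43 for DBP2, from 0.31 to 0.37 for RCF3 and from 0.65 to 0.66 for YHL050C. At 1 h 14 were higher and 30 lower, beside 14.8% and 14.6%, and 20 and 21 under library totals. DMC1 had the largest difference among well expressed members, -2.70 ± 0.24 (edgeR, adjusted p = 1.99e-09), and 6 of 13 meiosis genes were lower in set2Δ, SPO22 by -1.16 and SPO1 by -1.08. DTD1 (0.91), IAI11 (0.67), ECM33 (0.53) and 3 translation genes were higher in set2Δ, and UBC5 (-0.71) and UBC4 (0.37) differed in opposite directions. At 3 h 3 genes were higher and 4 lower, beside 2.23% and 2.46%, with ASC1 at 0.37, TMA20 at 0.35, STO1 at 0.32, MOB1, a kinase activator, at -0.40, ECM33 at -0.40 and SRC1 at -0.26. None of these 6 calls at 3 h held in every fit without 1 of the 4 libraries, and where a call was lost the values were 0.18 to 0.39 for the genes higher in set2Δ and -0.43 to -0.21 for the lower ones. STO1 had 0.48 without H3K36A library 1, and with library totals STO1 and SRC1 did not pass (0.33 and -0.25). ACT1, whose 1 h difference was 0.34 ± 0.08 (edgeR, adjusted p = 0.00122), had -0.20 ± 0.08 at 3 h, which did not pass the test (edgeR, adjusted p = 0.143).

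In rph1Δ cells few of these genes differed from WT before 3 h. All values with this strain carry the difference in mating-type transcripts given above, whose part in them was not tested. At 0 h 4 were higher and 2 lower, beside 2.41% and 2.41% of all genes. DBP2 stood at 97.6 and 104 in rph1Δ against 223 and 209 in WT, without overlap, with -1.10 ± 0.13 (edgeR, adjusted p = 7.09e-07). GCR1, an activator of glycolytic genes, changed by -0.55, PAL2 by 0.45, and YSC84, RRT8 and UBC8 by 0.40, 0.40 and 0.36. The calls for RRT8 and UBC8 were lost without any 1 of the 4 libraries (0.33 to 0.44) and that for YSC84 without WT library 1 (0.36) or rph1Δ library 1 (0.29). At 1 h 6 were higher and 12 lower, beside 5.9% and 9.27%. Library totals turned this into 12 higher and 5 lower, beside 14.2% and 5.90% of all genes. The median was then 0.01 in place of -0.09, and 0.10 for all genes. MPT5 (0.81), NBL1, a chromosomal passenger subunit (0.69), and BIG1, of cell wall glucan synthesis (0.36), were higher, and MRA1 (-0.77), NCB2 (-0.43), OM14 (-0.43), ASC1 (-0.42) and MRK1 (-0.37) were lower. ACT1 stood at 849 and 899 in rph1Δ against 1124 and 1081 in WT, below it in both libraries, with -0.34 ± 0.08 (edgeR, adjusted p = 0.0032). AMA1, which overlaps another gene, changed by 1.50. Of these calls, MRA1 and OM14 held without each library in turn, and those of NCB2 and MRK1 were lost with library totals (-0.33 and -0.26). Without WT library 1 the calls were lost for MPT5 (0.60), NBL1 (0.56), BIG1 (0.35), NCB2 (-0.44) and ASC1 (-0.32), and without WT library 2 for NBL1 (0.83), BIG1 (0.36), NCB2 (-0.42), MRK1 (-0.32) and AMA1 (1.15). Without rph1Δ library 1 they were lost for MPT5, NBL1, BIG1, NCB2, ASC1, MRK1 and ACT1 (0.73, 0.69, 0.38, -0.28, -0.30, -0.36 and -0.29), and without rph1Δ library 2 for NBL1, BIG1 and MRK1 (0.69, 0.33 and -0.38).

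At 3 h 9 genes were higher and 49 lower in rph1Δ, beside 11.6% and 16.4% of all genes. With library totals 21.7% of all genes were higher and 7.64% lower. The intron-containing genes had a median of -0.18, against -0.25 without WT library 1 and -0.13 without WT library 2. Without WT library 2 of 3 h only 1 was higher and 15 lower, beside 6.12% of all genes lower, and with library totals 18 were higher and 15 lower, so this count rests on that library and on the scaling. In membrane traffic 12 of 24 were lower, and 2 without that library. MPT5 had 1.22, YDR535C 1.10, the nucleoporin NSP1 0.43, HFM1 0.43 and YSC84 0.25, and YHL050C -1.02, NCE101 -0.82, YJR112W-A -0.74, ATG44 -0.61 and SPO1 -0.60. Of 13 meiosis genes 4 were higher and 1 lower, including REC114 (1.50) and AMA1 (1.23), and without that library none was higher and 1 lower. Without WT library 2 the calls were lost for YDR535C (0.98), NSP1 (0.24), HFM1 (0.43), YSC84 (0.20), NCE101 (-0.54), ATG44 (-0.31), REC114 (1.03) and AMA1 (1.24). With library totals the ATG44 call was lost as well (-0.48). Leaving out an rph1Δ library removed those for YDR535C, YSC84, NCE101, NSP1, HFM1, ATG44 and REC114 (library 2, with 1.00, 0.21, -0.73, 0.43, 0.40, -0.49 and 1.51) and for NSP1, HFM1, ATG44 and REC114 (library 1, with 0.44, 0.46, -0.76 and 1.48), and HFM1 also without WT library 1 (0.42). In the first-hour test 1 gene changed more upward and 9 more downward than in WT, beside 3.29% and 5.23% of all genes. With library totals the counts were 1 and 4, beside 3.74% and 4.06%. The upward gene was GCR1 at 0.67 ± 0.14 (edgeR, adjusted p = 0.00276), and MRK1, MRA1 and PAL2 at -0.64, -0.59 and -0.51 led the others. The MRK1 call was lost without rph1Δ library 1 of 0 h (-0.52), and that of MRA1 without 4 of the 8 libraries, one at a time (-0.56 to -0.52). DBP2 in this test was 1.00 ± 0.57 and did not pass (edgeR, adjusted p = 0.336).

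The lower levels in the mutants went with gene length in genes with and without introns alike. In set2Δ at 3 h, 50 intron-containing genes of up to 500 bases had a median of -0.46 and 76.0% were lower, against -0.37 and 41.0% of 707 intronless genes of that length. Between 500 and 1000 bases the medians were -0.34 and -0.29, between 1000 and 2000 bases -0.23 and -0.04, and above 2000 bases 0.04 and 0.36, with 12.5% of 16 and 5.67% of 1269 genes lower. Splitting by level as well, genes of up to 1000 bases with over 100 FPKM were lower in 77.9% of 68 intron-containing and 62.3% of 922 intronless cases, and short genes at or below 100 FPKM in 41.7% of 36 and 35.0% of 1092. Longer genes above that level were lower in 55.6% of 18 and 40.5% of 693, and longer genes below it in 25.0% of 36 and 13.6% of 2693. In H3K36A at 3 h the same 4 classes gave 75.0% against 58.8%, 44.4% against 34.1%, 38.9% against 40.8% and 25.0% against 13.1%. In rph1Δ at 3 h they gave 52.9% against 47.2%, 19.4% against 14.0%, 16.7% against 17.3% and 8.33% against 5.42%. Over all lengths 55.1% of the intron-containing genes and 29.7% of the intronless genes were lower in set2Δ at 3 h, so the gap of the totals was wider than that within most classes. The WT libraries of 3 h themselves differed by length, as described above. Without library 2, 44.0% of the intron-containing and 24.3% of the intronless genes of up to 500 bases were lower in set2Δ, with medians of -0.29 and -0.21, and above 2000 bases the medians were 0.12 and 0.28. The split by length and level was made with all libraries.

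**Figure D5:**
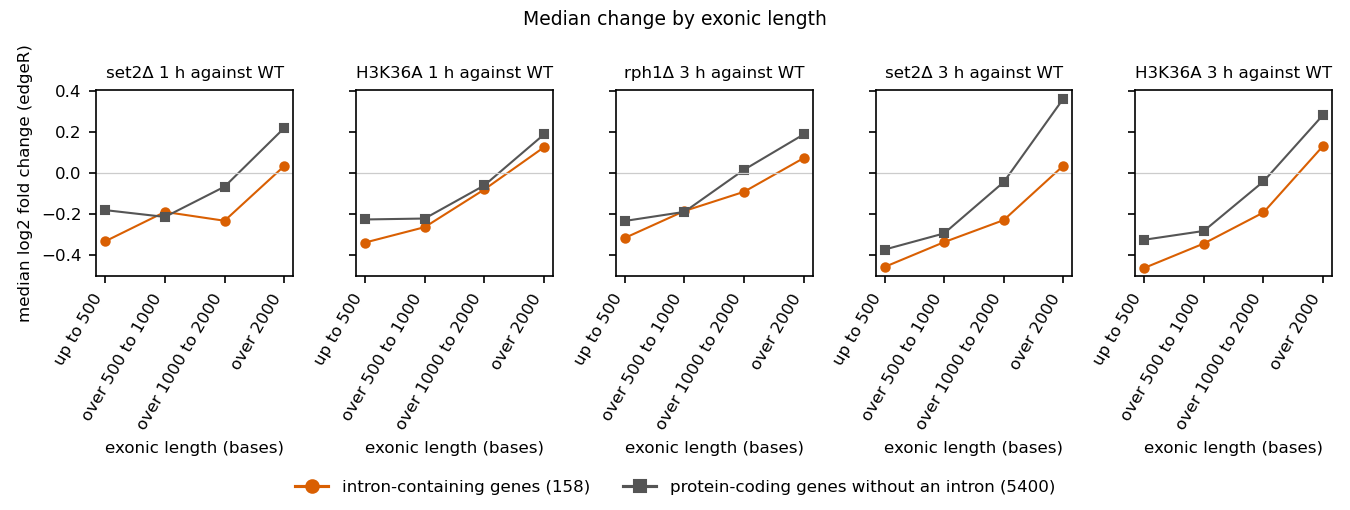
Median log2 fold change (edgeR) by exonic length in 5 comparisons of a mutant with WT, for the 158 intron-containing genes (circles) and 5400 protein-coding genes without an intron (squares). In set2Δ at 3 h the medians ran from -0.46 for the shortest intron-containing genes to 0.04 for the longest, and from -0.37 to 0.36 for the intronless genes.

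Properties of the introns were set beside the same values as a description. The 23 genes whose longest intron exceeded 200 bases were lower in 26.1% of cases in set2Δ at 3 h, with a median of 0.00, and the 134 with shorter introns in 60.4%, with a median of -0.37. In H3K36A at 3 h the shares were 26.1% and 57.5%. The genes with long introns were also longer and less expressed, with a median exonic length of 1365 bases and 57.8 FPKM against 708 bases and 113 FPKM, and the lower calls went with length and level as given above, so intron length cannot be told apart from these here. In WT at 3 h against 0 h, 30.4% and 54.5% of them were higher. Of the 7 genes with 2 introns, 6 were lower in set2Δ at 3 h, with a median of -0.59, and 5 in H3K36A, with a median of -0.56. These 7 genes are short, with a median exonic length of 291 bases, and 76.0% of all intron-containing genes of up to 500 bases were lower in set2Δ at 3 h. The values in set2Δ were -1.70 for HOP2, -0.70 for DYN2, -0.67 for VMA9, -0.59 for YOS1, a COPII vesicle protein, -0.56 for SUS1, -0.43 for AML1 and -0.05 for TAD3, a tRNA deaminase subunit, which alone did not pass the test. Without WT library 2 of 3 h, the calls for HOP2 (-0.98), DYN2 (-0.42), YOS1 (-0.29) and SUS1 (-0.25) were lost, HOP2 also without set2Δ library 2 (-1.30), and with library totals those for AML1 (-0.18), YOS1 (-0.34), DYN2 (-0.46), HOP2 (-1.45) and SUS1 (-0.31), so VMA9 held under both. Genes with GTATGT in every intron were lower in 58.1% of 117 cases and the others, among them CMC4 with its GTTTGT, in 47.5% of 40. Genes with an exact TACTAAC in every intron, such as UBC5 and DMC1, were lower in 56.7% of 120 cases and those lacking it, such as CMC4 and TAD3, in 51.4% of 37. Among 132 genes that overlap no other gene, 76 were lower (57.6%).

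The machinery that removes the introns was followed through a list of 96 splicing genes, which are mostly not intron-containing themselves. In WT 37 rose (38.5%) and 28 fell (29.2%) at 1 h, against 37.3% and 34.8% of all genes, with SNU13 at -6.02 and PRP43 at -5.07 lowest, both of which also act in ribosome assembly, and CWC23 at 1.83 and URN1 at 1.60 highest. At 3 h 46 were higher (47.9%) and 21 lower (21.9%) than at 0 h, against 35.6% and 34% of all genes. Against WT, 20 were higher and 26 lower in set2Δ at 1 h (20.8% and 27.1%), shares close to the 20.4% and 27.3% of all genes, and 24 and 24 in H3K36A (25.0% each against 20% and 26.7%). At 3 h they were 14 and 29 in set2Δ (14.6% and 30.2% against 20.6% and 27.8%) and 15 and 26 in H3K36A (15.6% and 27.1% against 18.7% and 27.6%), with IST3 lowest at -2.04 and -2.26. At 0 h the counts were 7 and 4 in set2Δ (7.29% and 4.17%, with 13.3% and 8.73% of all genes). They were 4 and 9 in H3K36A, with 13.4% and 11.1% of all genes, and 1 and 0 in rph1Δ, with 2.41% and 2.41%. In rph1Δ later they were 0 and 4 at 1 h, with 5.9% and 9.27% of all genes. At 3 h they were 8 and 19 (8.33% and 19.8%, with 11.6% and 16.4% of all genes). In the first-hour test, 14 splicing genes changed upward and 5 downward relative to WT in set2Δ (14.6% and 5.21%, with 10.9% and 17.2% of all genes). In H3K36A 17 changed upward and 3 downward (17.7% and 3.13%, with 9.9% and 18% of all genes), and in rph1Δ 1 and 2. The intron-containing genes had 8 against 41, 8 against 31 and 1 against 9. Under library totals these became 15 against 18, 12 against 18 and 1 against 4. The splicing genes are given with TMM factors and all libraries only, so the same check is not available for them.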

How the data were processed

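RNA was sequenced from 24 yeast libraries. Per the submitters' processing notes, reads were processed with cutadapt 1.9.1, HISAT2 2.0.1 and HTSeq 0.6.1 on sacCer3. The authors deposited counts per gene and FPKM in 1 table, whose FPKM could be recomputed from the counts, exonic lengths and library totals for 100% of values (tolerance 0.0051). Whether strand was used, and how reads of overlapping or similar genes were counted, was not given in the sources used here. Every library held 6623458 to 7677684 counts, and libraries of a group differed beyond sampling noise (chi-square per degree of freedom 2.72 to 14.9).

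The deposited counts were fitted with edgeR 4.0.16 in R 4.3.3 (quasi-likelihood test, TMM factors 0.823 to 1.19, all 12 groups, 12 residual degrees of freedom, common biological coefficient of variation 6.73%). Genes needed an FPKM of 1 in at least 2 libraries, which 6503 met and 623 did not. A call is a Benjamini-Hochberg adjusted p under 0.05 over all genes tested, and the SE is the log2 fold change divided by the root of the F statistic. The fit was tested on simulated data. Alternatives were DESeq2 1.42.0, limma 3.58.1 on log2 FPKM, other scalings and filters, the groups compared alone, a replicate block and leaving out each library. Of 7126 genes 6048 matched RefSeq, 6036 with the same coordinates, and 160 of the 161 intron-containing genes matched, 159 with the same coordinates.

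The intron-containing genes, role lists and tests were chosen with earlier results of these data known. Named were, among genes with an adjusted p under 0.05, an average FPKM of 10 or more in the higher of the groups and no overlap between libraries (overlap was not considered in first-hour tests), the 10 highest and 10 lowest changes in WT, 5 and 5 in a mutant and 3 and 3 elsewhere, the 2 highest and 2 lowest of each role, and 12 genes known for their introns. For genes picked by their changes, the lack of overlap stated above was thus a condition of being named, not a further result. Other genes named, among them those set beside another strain, the genes with 2 introns, several ubiquitin genes and those with few counts, were chosen after their values were seen. The comparison with intronless genes by length and level, the role lists under each setting and the leaving out of WT libraries of 3 h by length were also added after seeing the data. RPL, RPS, RPP and MRP genes were not described beyond their counts.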

Additional observations from a re-analysis of the deposited data

Results flagged for a closer look

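The results listed here are genes whose first-hour change in a mutant differed from that in WT by the test of the difference itself (edgeR quasi-likelihood test, adjusted p under 0.05). They are the 3 highest and 3 lowest for each mutant among intron-containing genes that met the FPKM limit for naming given above, or all there were on a side. Each value is the mutant's log2 change from 0 h to 1 h less that of WT.

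In set2Δ the differences were 2.26 for DBP2, 2.13 for IMD4 and 0.70 for YCL002C on the upward side. On the downward side they were -1.15 for SPO22, -1.14 for UBC5 and -1.10 for MRK1. The DBP2 transcript had few counts in WT at 1 h (15 and 6). Its difference rests on those libraries and also on 0 h, when DBP2 was below WT in set2Δ (-1.14) and H3K36A (-1.68).

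In H3K36A the differences were 3.01 for DBP2, 1.71 for IMD4 and 0.76 for SPO1 upward, and -1.32 for UBC4, -1.27 for DTD1 and -1.08 for ACT1 downward. For IMD4, UBC4 and UBC5, reads that match a similar gene may be counted for either copy, and the sources used here do not say how they were counted.

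In rph1Δ the single upward difference was 0.67 for GCR1, and the lowest were -0.64 for MRK1, -0.59 for MRA1 and -0.51 for PAL2. The part of the mating-type difference of this strain in these values was not tested.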

How the results depend on the processing

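The counts of intron-containing genes called moved by more than 1.5 times under some settings. With only the groups compared in the fit, the count was 10 in place of 6 for rph1Δ against WT at 0 h, 30 in place of 18 at 1 h and 26 in place of 58 at 3 h. It was 7 in place of 23 for set2Δ at 0 h, 61 in place of 96 for H3K36A at 3 h and, for set2Δ against H3K36A, 11 in place of 7 at 3 h and 0 in place of 4 at 0 h. In that last fit of edgeR 10 genes had an unadjusted p under 0.05, and on all groups DESeq2 called 5. With library totals it was 33 for rph1Δ and 63 for H3K36A at 3 h, 5 in place of 10 for the first-hour test in rph1Δ and 4 for set2Δ against H3K36A at 3 h. On log2(FPKM + 1) and log2(FPKM + 0.1), limma gave 29 and 29, 63 and 62, 5 and 5, and 4 and 4 for these, and 10 with the smaller pseudocount for rph1Δ at 1 h. An FPKM filter of 10 left 32 of 49 in the first-hour test of set2Δ, where fewer genes were tested.

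Leaving out 1 library at a time gave 3 (without WT library 1) to 4 genes for rph1Δ at 0 h, 5 (without rph1Δ library 1) to 10 at 1 h and 16 (without WT library 2) to 71 at 3 h, with 27 without either rph1Δ library. The range was 11 (without either WT library) to 26 for set2Δ at 0 h, 10 (without H3K36A library 1) to 23 for H3K36A at 0 h, with 13 without WT library 1, and 59 (without WT library 2) to 97 for H3K36A at 3 h. For set2Δ against H3K36A it was 1 to 11 at 0 h, each of the 4 libraries moving it, and 1 to 2 at 3 h. In the first-hour test it was 4 to 9 for rph1Δ, 32 (without set2Δ library 2 of 1 h) to 52 for set2Δ and 27 to 35 for H3K36A. Within WT the counts were 110 to 116 at 1 h (121 with all libraries), 102 to 118 at 3 h (117) and 63 to 89 between 1 h and 3 h (81).

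Among the values of single named genes, 11 of 5968 turned their sign in a test that had passed or then passed. Between 1 h and 3 h in WT these were YRA1 (-0.14 with limma at both pseudocounts), GLC7 (-0.25 with library totals and with limma at both pseudocounts) and MAF1 (-0.064, -0.062 and -0.062 in the same order), and in set2Δ at 3 h TEF4 (0.24 with the same 3). Beside these, 371 values lost their call, 40 gained one and 5546 did neither. With only the groups compared in the fit, the named genes that lost their call included CMC4 in H3K36A at 0 h (-0.53) and CMC4, GIM5, OSW2, YCL002C, YKR005C and YSF3 in set2Δ at 0 h (-0.56, -0.41, -1.42, -0.39, 0.53 and 0.47).

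Samples with the same replicate number did not deviate together: over 66 pairs of groups the correlation of the difference between libraries 1 and 2 ran from -0.255 to 0.171 with a median of 0.00161, and 6 exceeded 0.1. A replicate block moved no count of calls by more than 1.5 times, with 121 genes called at 1 h and 117 at 3 h in WT as without it, and it removed the call of STO1 (0.32) in set2Δ against H3K36A at 3 h. With 2 libraries in each group, the low counts of DBP2 in SL, MEI4, YJR079W and the Y' genes limit their values most.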

Other observations

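Small groups of intron-containing genes outside the roles described above also moved in the mutants. Of 7 metabolic genes 5 were lower and 1 higher in set2Δ at 1 h, and 2 were lower and 1 higher in H3K36A. CPT1, of phosphatidylcholine synthesis, changed by -0.42 in set2Δ and -0.68 in H3K36A at 1 h, after a rise of 0.76 in WT, and IMD4 was the gene that was higher. With library totals the set2Δ value of CPT1 was -0.20 and did not pass. HNT1, a nucleotide hydrolase, changed by -0.48 in set2Δ at 1 h. At 3 h 4 metabolic genes were lower in set2Δ and 5 in H3K36A, but 2 and 0 without WT library 2 of 3 h and 2 and 0 with library totals.

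ECM33, the GPI-anchored wall protein, was lower than WT in H3K36A at 1 h (-0.83) and higher at 3 h (0.41), and the difference between these values was not tested. In that strain its level was 936 and 871 at 0 h, 190.1 and 192 at 1 h and 243 and 257 at 3 h on the TMM-scaled FPKM scale, so it was lowest at 1 h, while WT was lowest at 3 h. In set2Δ the levels were 896 and 964, 274 and 279 and 197 and 182, and the difference from WT at 3 h was 0.00, which did not pass the test and did so with library totals (0.25).

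Of the 23 genes of other or unknown role, 14 rose and 5 fell in WT at 1 h, and 12 were lower and 1 higher in set2Δ at 3 h, with 8 lower without WT library 2 of 3 h and 6 with library totals. TMH18, a membrane protein, rose by 1.58 in WT at 3 h and changed by -0.67 in set2Δ and -0.60 in H3K36A. YBR062C, an uncharacterised gene, rose by 1.62 in WT at 3 h and changed by -0.57 and -0.53. Among the Y' genes, whose copies share sequence, YHL050C, which overlaps another gene, was 1.02 in set2Δ at 0 h and -1.02 in rph1Δ at 3 h.

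Over the 12 groups, the highest group mean of a gene fell at 3 h for 74 of the 161 genes, at 0 h for 48 and at 1 h for 39. The lowest fell at 0 h for 70, at 1 h for 70 and at 3 h for 21. Most of the highest means at 3 h were those of WT, whose libraries at 3 h differed by gene length as described above. How these counts depend on the scaling or on single libraries was not tested, and no counts over all genes were set beside them. The genes of the preceding paragraphs were named after their values were seen.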
